A study of Homo sapiens with 2 samples.

Results

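The HOX genes of the 4 human clusters were described in T47D cells, an established line of estrogen receptor-positive luminal breast cancer. Members were all protein-coding genes named HOXA, HOXB, HOXC or HOXD with a number from 1 to 13, matched by Ensembl identifier. This gave 39 genes (11 HOXA, 10 HOXB, 9 HOXC and 9 HOXD) of 19263 protein-coding genes and 57820 genes in the count table. All 39 were also found, with the same exon length, in the study's other count table, whose library columns were not used here. The labels gave 1 group: T47D cells with ESR1 Y537S, a change in the estrogen receptor alpha protein, which received 25 nM control siRNA and were kept in medium without hormone. It held 2 replicate libraries of ribosomal RNA-depleted total RNA, so levels were described and no conditions were compared. The labels state neither whether the replicates were separate cultures nor whether the cells were 1 clone, so the spread between libraries may be technical.

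HOX genes encode homeodomain transcription factors. They lie in clusters on 4 chromosomes in an order that matches where along the body axis each is active in the embryo, with low numbers (anterior) towards the head and high numbers (posterior) towards the tail. Genes of the same number in different clusters, called paralogs, arose by duplication of an ancestral cluster. Adult cells, mammary epithelium included, keep part of the embryonic pattern, and HOX proteins bind DNA together with cofactors of the TALE class (the PBX, MEIS and PKNOX families).

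The clusters also hold microRNA genes, and the miR-196 family is known for its targets among HOX transcripts. The 2 mature sequences are shown because they share the seed, bases 2 to 8, by which a microRNA recognises a target; the seed is in capitals. Beside them stands the stretch of the HOXB8 3′ UTR most complementary to miR-196a-5p, with the bases that face the seed in capitals. The mature microRNAs are RefSeq sequences of GRCh38.p14.
miR-196a-5p: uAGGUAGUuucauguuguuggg
miR-196b-5p: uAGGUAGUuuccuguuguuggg
HOXB8 site: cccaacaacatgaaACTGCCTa

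The match to the miR-196 seed, ACTACCT read on the transcript strand, stood in the 3′ UTRs of 8 of 39 HOX genes (20.5%): HOXA5, HOXA7, HOXA9, HOXB1, HOXB6, HOXB7, HOXB13 and HOXC8. Over all 18832 protein-coding genes with a 3′ UTR the share was 6.07%. HOX 3′ UTRs held 0.322 such sites per kb and all coding genes 0.0444, at median 3′ UTR lengths of 856 and 808 bases. HOXB8 has no exact seed match, but 21 of the 22 bases of its site pair with miR-196a-5p, and it was the only one of 18631 coding genes measured with 18 or more pairing bases. HOXB8 is known as a transcript that miR-196 cleaves. Of the 8 genes with the miR-196 match, HOXB7 and HOXC8 were detected in the libraries. Seeds of other mature microRNAs of the clusters were searched as well. Their matches stood in shares of HOX genes from 0% (miR-196a-3p, against 12.8% of coding genes) to 12.8%. The latter was the share for miR-196b-3p (1.96% of coding genes) and for miR-196a-1-3p (15.8%). These matches are descriptions of letters, and mature microRNAs were not measured by these libraries.

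The libraries held 41370662 and 37198274 reads on genes. CPM, the reads of a gene scaled to library size, set the detection limit, at 1 CPM in both libraries, and TPM, which is also scaled to exon length, served for levels. Rows with exactly 2 reads (2457 in replicate 1) outnumbered rows with 1 read (1502), so mates of a pair may have been counted as 2 reads; intervals that treat each read as independent would then be too narrow. Nuclear protein-coding genes took up 29.8% and 26.4% of the TPM scale. On a scale of those genes alone, each TPM would be 3.35-fold higher in replicate 1 and 3.78-fold higher in replicate 2. TPM differences between the libraries include this scaling. HOXC13, for example, was lower in replicate 2 by TPM (11.1 and 10.9) but higher by CPM (17.4 and 18.9), while HOXB2 was lower by both. All 9 luminal markers were detected, KRT19 with 1371 and 1399 TPM being the highest. Of other cell types, 2 of 6 basal markers (ACTA2 and MYH11), 1 of 7 fibroblast markers (COL1A1) and 0 of 3 endothelial markers were detected; the summed level of each of these lists was at most 3.30 TPM in either library. The defining markers DCN, PDGFRB, CD3E, CD68, CDH5 and KDR had 0 reads.

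Detection differed between clusters. HOXC genes accounted for most of the HOX signal: 7 of 9 were detected, against 3 of 10 HOXB genes and none of the 11 HOXA or the 9 HOXD genes. In all, 10 of 39 members were detected (25.6%), where 60.9% of all protein-coding genes were. By position the shares lay close together, at 2 of 8 anterior genes (numbers 1 to 3), 4 of 15 central genes (4 to 8) and 4 of 16 posterior genes (9 to 13). Summed over members, HOXC had 71.5 and 63.2 TPM, HOXB 13.5 and 9.97, HOXA 2.16 and 0.758, and HOXD 0.677 and 0.567, so that the clusters kept the same order in both libraries. HOXC thus held 81.4% and 84.8% of the HOX TPM, and the posterior HOXC genes alone 73.7% and 77.2%. The median of log2(TPM + 0.1) was 1.59 for HOXC, -2.08 for HOXB, -2.90 for HOXD and -3.32 for HOXA, beside 1.26 over all protein-coding genes.

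**Figure D1:**
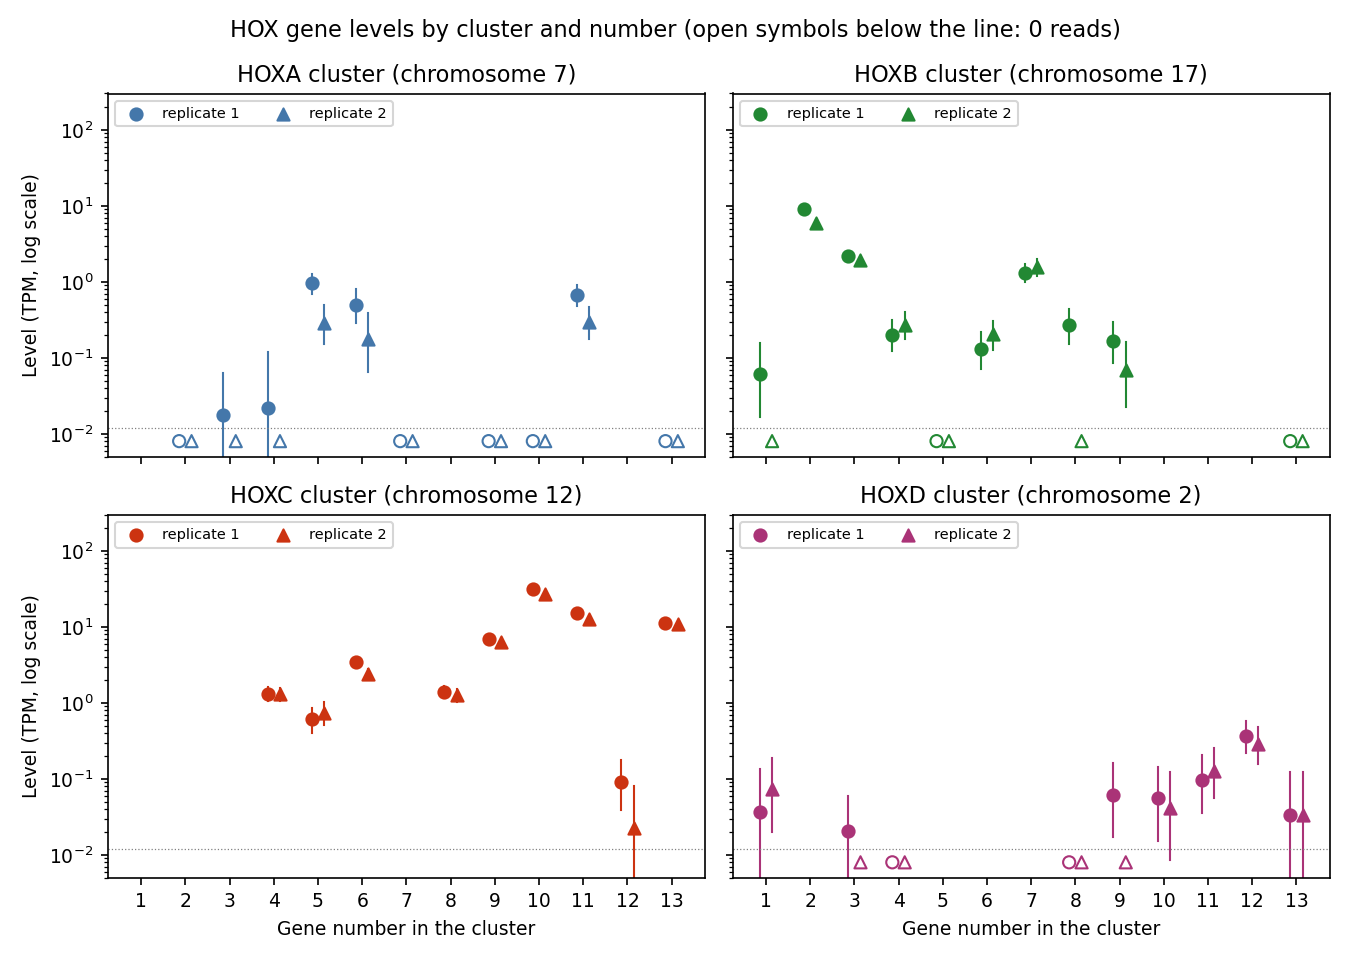
Level of each HOX gene (TPM, log axis) against its number, 1 panel per cluster, with replicate 1 as circles and replicate 2 as triangles; vertical lines are exact Poisson 95% intervals and open symbols below the dotted line have 0 reads; 1 HOXA gene is not drawn. HOXC10 stood highest at 31.2 and 27.4 TPM, and every HOXA and HOXD value drawn lay below 1 TPM.

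HOXC10 was the most abundant HOX transcript. It had 31.2 TPM in replicate 1 and 27.4 in replicate 2 (29.3 ± 2.64, SD, n = 2), a level above that of 88.9% of protein-coding genes. Its neighbour HOXC11 followed with 15.3 and 12.8 TPM (14.1 ± 1.77), and HOXC13, known from hair and nail development, with 11.1 and 10.9 (11.0 ± 0.201). The values of these 3 posterior genes did not overlap between genes, and together they made up 65.6% and 68.6% of the HOX TPM.

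HOXC12, which lies between HOXC11 and HOXC13, was nearly silent, with 8 and 2 reads. An identifier without a name in the tables used here, on the same strand and with 0 reads, covers 72.7% of its exon bases. Reads on bases of 2 rows were not counted, so HOXC12 was measured on its other 912 bases; over those it stood at 0.326 and 0.0816 TPM, still far below both neighbours. HOXC9 had 7.03 and 6.36 TPM (6.70 ± 0.479) and completes the posterior members of the cluster.

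The central HOXC genes were lower. HOXC6 had 3.49 and 2.43 TPM, HOXC8 had 1.39 and 1.26, and HOXC4 had 1.32 and 1.30. Other rows, HOXC6 among them, cover 78.9% of the exon bases of HOXC4, and over its own bases alone it reached 6.14 and 6.08 TPM, above HOXC6 on the same scale (4.07 and 2.84). HOXC5 fell short of the detection limit with 29 and 35 reads, 0.606 and 0.731 TPM; it shares 59.9% of its bases and stood at 1.49 and 1.80 TPM over the rest. The order of the central genes therefore depended on how overlapping exons were treated, while HOXC10, HOXC11 and HOXC13 were the top 3 of all HOX genes by mean on both scales. Over unshared bases HOXB2 in replicate 1 (12.3 TPM) stood above HOXC13 (11.8).

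**Figure D2:**
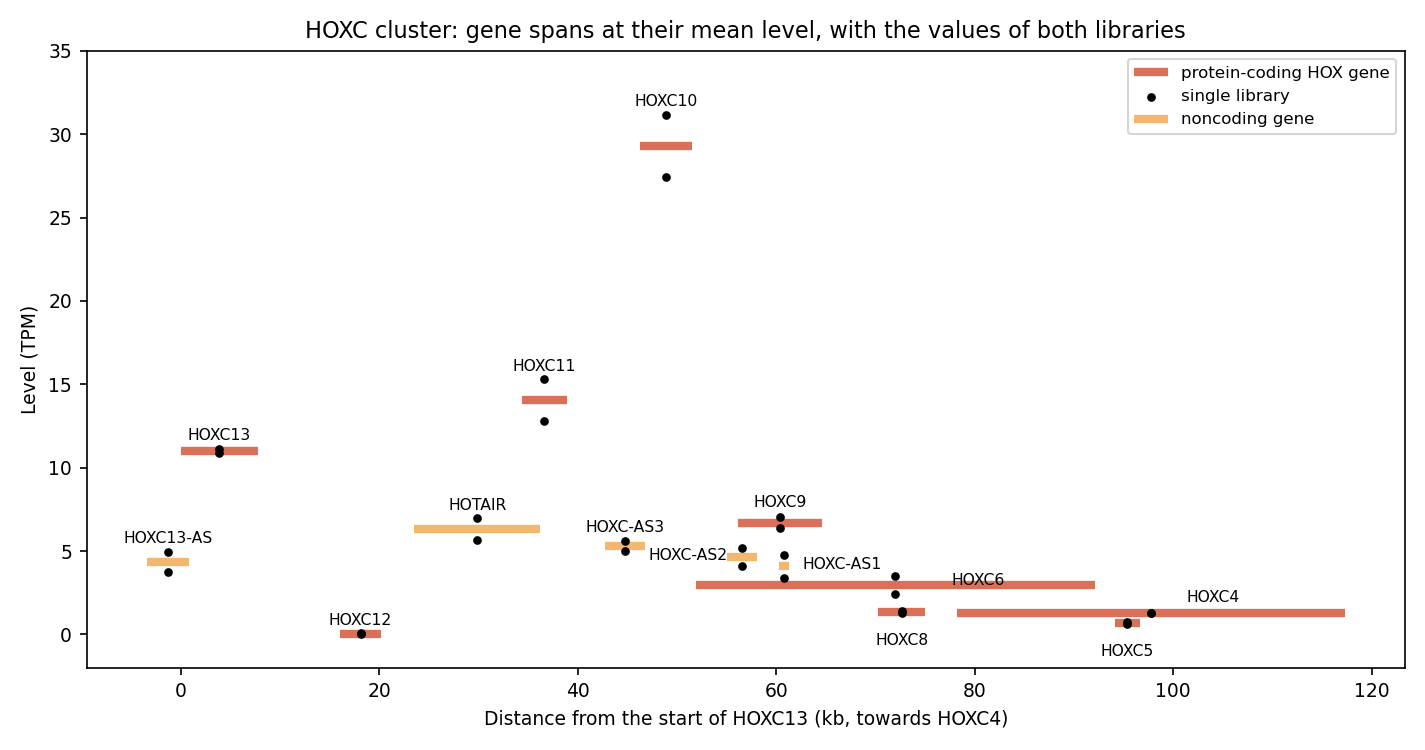
Gene spans of the HOXC cluster along the chromosome (kb from the start of HOXC13) drawn at their mean level (TPM), coding genes in red and noncoding genes in orange, with the 2 libraries as black points. HOXC10 and HOXC11 stood highest, HOXC12 between HOXC13 and HOXC11 lay near 0, and HOTAIR stood at 6.98 and 5.67 TPM.

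HOXC4 and HOXC5 share 1 transcription start in RefSeq. The 250 bases before it (GRCh38.p14, chr12:54016638-54016887, plus strand) are printed with CpG dinucleotides in capitals, beside those before HOXA13 (chr7:27200092-27200341, minus strand), a gene without a read whose window was the richest in CpG of the HOX windows.
HOXC4 and HOXC5: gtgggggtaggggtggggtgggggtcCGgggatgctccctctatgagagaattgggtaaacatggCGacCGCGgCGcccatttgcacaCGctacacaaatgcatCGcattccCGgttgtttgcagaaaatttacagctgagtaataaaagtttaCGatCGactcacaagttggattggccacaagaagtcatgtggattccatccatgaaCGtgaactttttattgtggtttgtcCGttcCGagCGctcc
HOXA13: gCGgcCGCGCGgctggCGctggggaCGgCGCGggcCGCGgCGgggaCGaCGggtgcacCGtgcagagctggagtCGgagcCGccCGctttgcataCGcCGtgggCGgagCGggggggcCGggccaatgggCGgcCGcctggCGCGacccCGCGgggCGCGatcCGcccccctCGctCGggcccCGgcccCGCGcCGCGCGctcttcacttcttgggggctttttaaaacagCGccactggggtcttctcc

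The printed stretches hold 14 and 40 CpG. Of the members, 20 matched the RefSeq promoter table, with 27 windows of 300 bases each, from 250 before to 50 after a start. These were HOXA and HOXD genes, HOXB1, HOXC4 and HOXC5. Of the detected genes only HOXC4 was among them, so the promoters of the other detected genes were not searched. The median over the first window of each gene was 22.5 CpG, against 14 over all 35116 windows of the table. On either strand, the full palindromic estrogen response element was found in 0 of the 27 HOX windows and in 0.0570% of all windows, and the single arm that such elements repeat (AGGTCA) in 0 and in 13.8%. The retinoic acid element DR5, a direct repeat of that arm, was found in 0 HOX windows and in 0.00570% of all. The TATA box letters (TATAAA) stood in 5 windows of HOXA3, HOXA9, HOXA10 and HOXD13, and in 11.5% of all windows.

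In the HOXB cluster the anterior genes HOXB2 and HOXB3 stood highest. HOXB2 had 9.18 and 5.93 TPM (7.56 ± 2.30), the widest relative gap between the libraries among the detected members, and HOXB3 had 2.16 and 1.93 TPM. HOXB7, a central gene, followed with 1.32 and 1.56 TPM. The other HOXB members with reads were HOXB4 (20 and 27 reads), HOXB6 (14 and 22), HOXB8 (15 and 0), HOXB9 (12 and 5) and HOXB1 (4 and 0). HOXB5 and HOXB13 had 0 reads in both libraries, which allows up to 0.0566 and 0.0402 TPM in replicate 1, the level of 3 reads over the exon bases that no other row covers. An antisense row, HOXB-AS1, covers 26.3% of the HOXB2 exon bases, and reads there were counted for neither row. Over its other bases HOXB2 had 12.3 and 7.93 TPM.

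No HOXA gene was detected. Only HOXA5, HOXA11 and HOXA6 had more than 2 reads in a library: HOXA5 had 43 and 13 reads (0.951 and 0.287 TPM), HOXA11 had 41 and 18 (0.671 and 0.294) and HOXA6 had 17 and 6 (0.499 and 0.176). All 3 were lower in replicate 2. HOXA3 had 2 reads and HOXA4 1 read, both in replicate 1. HOXA2, HOXA7, HOXA9, HOXA10 and HOXA13 had none. For these 5 genes the 3 reads that a count of 0 allows correspond, over exon bases covered by no other row, to levels in replicate 1 from 0.0239 TPM (HOXA13) to 0.123 TPM (HOXA7, which has 904 such bases). HOXA5 reached 1 CPM in replicate 1 (1.04) and not in replicate 2 (0.349).

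In the HOXD cluster, HOXD12 was the highest member, with 18 and 14 reads (0.371 and 0.288 TPM). HOXD11 had 6 and 8 reads, HOXD10 4 and 3, HOXD1 2 and 4, HOXD13 2 and 2, HOXD9 4 and 0, and HOXD3 3 and 0. HOXD4 and HOXD8 had 0 reads; HOXD4 shares 80.5% of its exon bases with HOXD3, and over the other 286 bases its count of 0 allows up to 0.390 TPM in replicate 1. Over the 39 members, 10 had no read in either library and 20 had at most 10 reads in each.

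**Figure D3:**
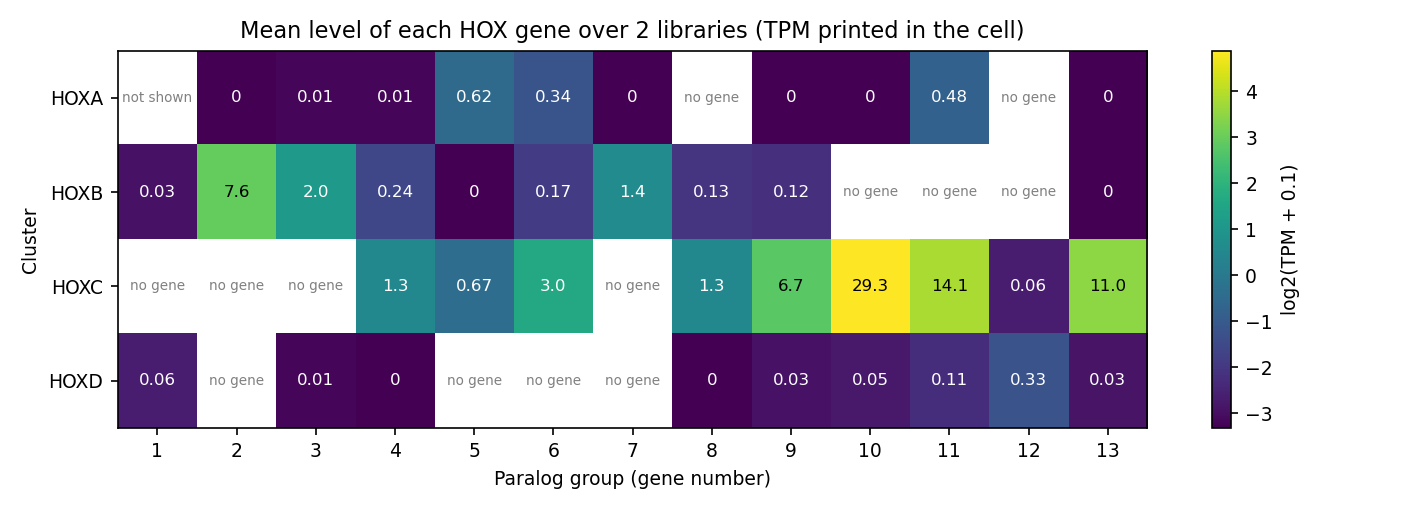
Mean TPM over the 2 libraries for each HOX gene, with clusters as rows and paralog groups (gene numbers) as columns; colour is log2(TPM + 0.1) white cells have no gene, and 1 cell is not shown. Each column holds at most 1 gene at 1 CPM or more in both libraries, and 7 of the 10 such genes lie in the HOXC row.

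Ordered by mean TPM, the detected genes ran HOXC10, HOXC11, HOXC13, HOXB2, HOXC9, HOXC6, HOXB3, HOXB7, HOXC8 and HOXC4. The 2 values of HOXB2 enclosed those of HOXC9, so these were not separated. HOXB7, HOXC8 and HOXC4 lay between 1.26 and 1.56 TPM; the values of HOXC4 fell within those of HOXC8, and HOXB7 in replicate 1 fell among both.

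Neighbours by number within a cluster were then compared. A pair counted as different when each library's exact conditional 95% interval of the TPM ratio lay on the same side of 1, and the mean log2 ratio was larger than 95% of the differences between replicates seen for genes at the level of the lower member. Of 35 pairs, 13 had a detected member and 11 of those differed (84.6%), beside 89.4% of adjacent protein-coding genes in the genome; the HOX share was thus near the background. The smallest ratios called were HOXC10 over HOXC11 (2.04-fold in replicate 1 and 2.14-fold in replicate 2), HOXC6 over HOXC8 (2.51 and 1.92) and HOXB2 over HOXB3 (4.25 and 3.07). The largest were HOXC11 over HOXC12 (169 and 566) and HOXC13 over HOXC12 (123 and 480), both resting on the 8 and 2 reads of HOXC12. Over the unshared bases of HOXC12 they were 46.2 and 155, and 36.2 and 141. HOXB2 over HOXB1 was 150-fold in replicate 1. In replicate 2 it was 130-fold with the 0 reads of HOXB1 set to 3, with an exact 95% lower limit of 105-fold. All 5 pairs with both members detected differed. HOXC4 over HOXC5 (2.17 and 1.78) did not pass, though it did over unshared bases (4.12 and 3.38). HOXB7 over HOXB8 (4.91, and 29.2 in replicate 2 with 0 reads set to 3) did not pass either.

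**Figure D4:**
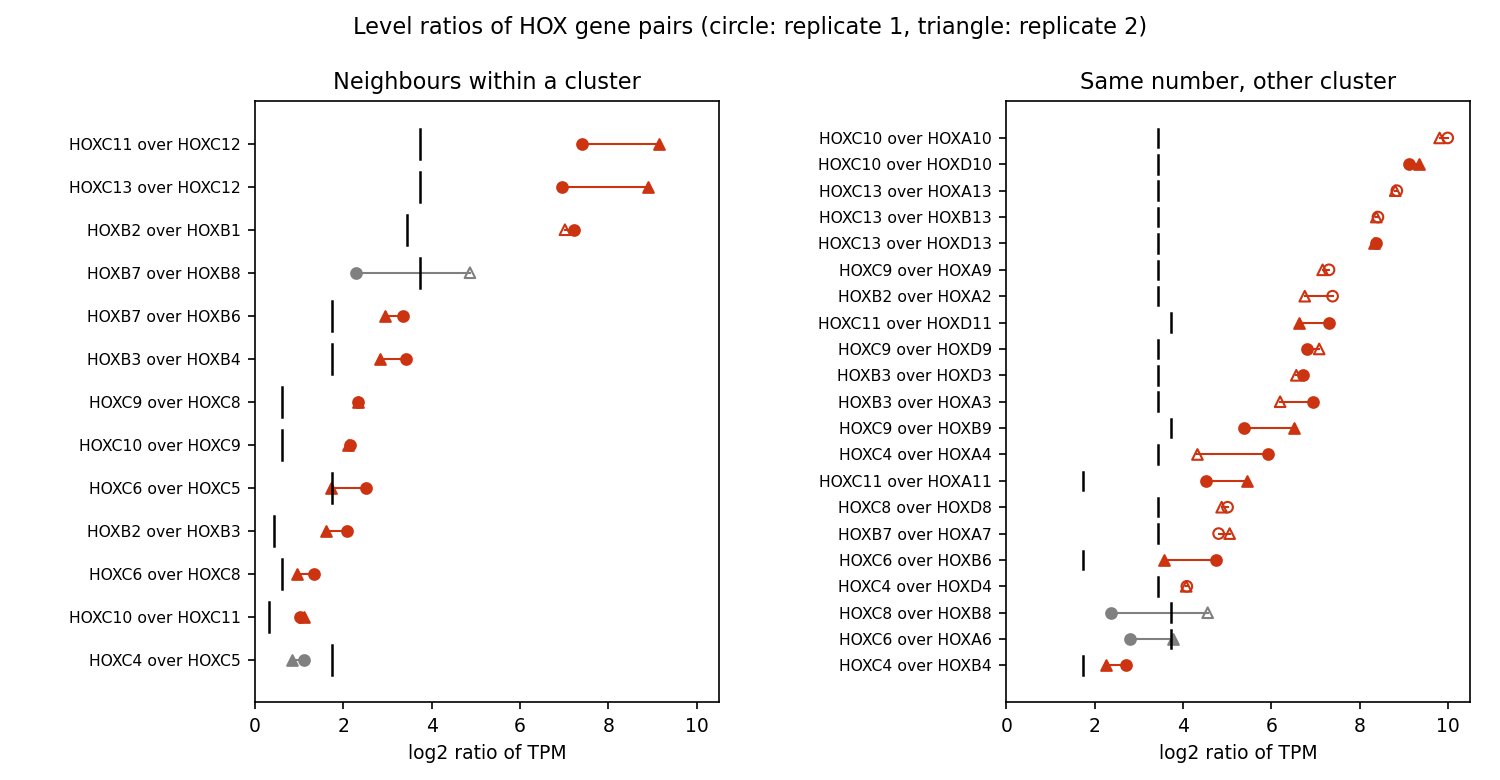
log2 ratio of TPM for the 13 neighbour pairs (left) and 21 paralog pairs (right) with a detected member, replicate 1 as circles and replicate 2 as triangles; open symbols are bounds with the lower gene at 0 reads, black ticks are the limit from replicate differences, and grey pairs were not called. HOXC10 over HOXA10 has the largest ratio and HOXC4 over HOXC5 the smallest.

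Paralogs were compared in the same way. In no paralog group were 2 members detected: where a HOXC paralog existed for numbers 4, 6, 8, 9, 10, 11 or 13 it was the detected one, and for numbers 2, 3 and 7, where HOXC has no gene, it was the HOXB member. Groups 1, 5 and 12 had none. Of 42 pairs, 21 had a detected member and 19 differed (90.5%), a share near the 89.4% of adjacent protein-coding genes. The largest ratios, with 0 reads set to 3, were HOXC10 over HOXA10 (1020 and 899), HOXC10 over HOXD10 (556 and 653) and HOXC13 over HOXA13 (459 and 448). Over unshared bases HOXC10 over HOXA10 was 834 and 734. By full exon length the smallest called were HOXC4 over HOXB4 (6.55 and 4.8), HOXC4 over HOXD4 (17 and 16.8) and HOXC6 over HOXB6 (26.9 and 11.9). Over unshared bases HOXC4 over HOXB4 was 25.7 and 18.9. Ratios to a gene with 0 reads take 3 reads for it and are not lower limits. Exact 95% lower limits with full exon lengths were 829 and 730 for HOXC10 over HOXA10. They were 373 and 363 for HOXC13 over HOXA13, and 13.6 and 13.4 for HOXC4 over HOXD4. The call of HOXC4 over HOXD4 was lost when counts were halved. HOXC6 over HOXA6 (6.98 and 13.8) and HOXC8 over HOXB8 (5.18, and 23.6 in replicate 2 with 0 reads set to 3) did not pass.

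The 2 libraries were compared gene by gene by an exact two-sided binomial test with Benjamini-Hochberg adjustment over 15184 genes at 1 CPM or more in either. Its p-values set 1 library against 1 library and cover counting error only. It called 40.1% of all genes, and 3 of the 11 HOX genes tested, all lower in replicate 2, the direction of 20.3% of all genes. HOXB2 had 842 reads in replicate 1 and 544 in replicate 2 (log2 difference of replicate 2 against replicate 1 -0.45, exact binomial adjusted p = 1.02e-07), HOXC6 had 327 and 228 (-0.34, exact adjusted p = 0.0176) and HOXA5 had 43 and 13 (-1.51, exact adjusted p = 0.00181). With counts halved, as if each pair of reads were 1 fragment, HOXB2 was still called (exact adjusted p = 0.000664), as were 3189 of all genes, while HOXA5 (0.0656) and HOXC6 (0.152) were not, by the same exact adjusted p. The median log2 difference was 0.02 over the HOX genes tested and 0.00 over all genes. HOXC10 had 46.5 and 45.6 CPM, a difference of -0.01.

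**Figure D5:**
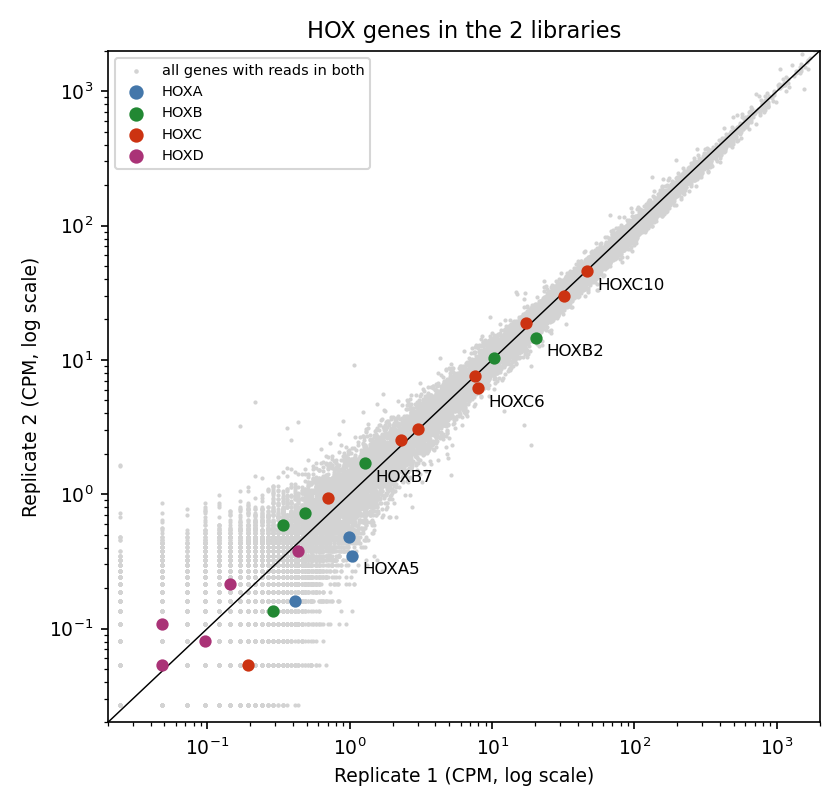
CPM in replicate 2 against replicate 1 (log axes) for genes with reads in both libraries, HOX genes coloured by cluster and the line marking equal values. HOXC10 at 46.5 and 45.6 CPM lies on the line, and HOXB2 at 20.4 and 14.6 CPM lies below it.

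Most noncoding genes detected in the clusters were in HOXC. Of 28 listed, 22 were matched and 7 were detected: 5 in HOXC, 1 in HOXB, 1 in HOXD and none in HOXA. HOTAIR, an RNA transcribed from the strand opposite to HOXC11 and known for its link to Polycomb, had 6.98 and 5.67 TPM. HOXC-AS3 had 5.63 and 5.02, HOXC-AS2 5.19 and 4.14, HOXC13-AS 4.96 and 3.72, and HOXC-AS1 4.78 and 3.38 TPM. The HOXC-AS1 and HOXC-AS2 rows lie within the span of HOXC6, and counting was unstranded. Whether their reads include HOXC6 RNA was not tested. The share detected over all noncoding genes was not computed. HOXB-AS1, which overlaps HOXB2 and HOXB3, had 1.84 and 1.36 TPM, and HAGLR, beside HOXD1, 0.560 and 0.373. HOXB-AS1 shares 82.4% of its length, where reads were not counted, so its TPM understates its level. HOTAIR shares 0%, and the order of these RNAs over unshared bases was not tested. HOTTIP and HOTAIRM1, at either end of HOXA, had 0 reads. The row of MIR196A2, the precursor between HOXC10 and HOXC9 of the miR-196a-5p printed above, had 26 and 16 reads on 110 bases (8.92 and 5.49 TPM), under 1 CPM, and that of MIR196A1 in HOXB had 0. By mean TPM over full exon length the row of MIR196A2 was the highest of the list, and it shows reads over the hairpin, not the mature form.

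Of the 9 TALE cofactor genes, 6 were detected. PBX3 had 15.7 and 13.4 TPM, and PKNOX1 had 3.53 and 3.41. PBX2 had 2 and 0 reads. It lies in a stretch of chromosome 6 in which 3 of 176 protein-coding genes were detected (1.70%, against 61.1% on the rest of that chromosome), so no level can be read for it. Among 13 other homeobox genes, from beside the clusters or from the ParaHox and extended Hox groups, only MNX1 was detected, with 4.16 and 4.16 TPM. GBX2 had 14 and 2 reads and the other 11 had 0, the CDX genes that regulate HOX genes in the embryo and EVX1 and EVX2 at the ends of HOXA and HOXD included.

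Listed genes around the clusters, not all of them directly adjacent, were mostly active: 15 of 18 were detected. CBX5 and CBX1, which encode heterochromatin proteins, had 108 and 87.3 TPM and 103 and 85.7 TPM. CBX5 lies beyond SMUG1 from HOXC, and CBX1 lies beyond SKAP1 from HOXB. HIBADH and SKAP2, which lie to either side of HOXA, had 64.9 and 61.2 TPM and 26.7 and 25.3 TPM, while no HOXA gene was detected. HNRNPA1, ATP5MC3, SMUG1, MTX2, TAX1BP1, HNRNPA3, SNX11 and SNX10 lay between 53.7 and 10.3 TPM on average. PRAC1 and PRAC2, next to HOXB13, had 0 reads, as HOXB13 did.

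Regulators known to act on HOX clusters were measured too. All 17 Polycomb, trithorax and insulator genes listed were detected, WDR5 (40.4 and 36 TPM), CTCF (37.1 and 28.1) and SUZ12 (37.4 and 27.6) being the highest. ASH1L, CBX2, EZH2, KDM6A, KMT2A and MEN1 lay between 28.1 and 10.9 TPM on average. Retinoic acid, a vitamin A derivative, activates HOX genes in order along the cluster in the embryo. Of its 14 receptors, binding proteins and enzymes, 7 were detected: the binding protein CRABP2 had 574 and 532 TPM, and the receptors RARG, RARA and RXRA had 21.6, 14.5 and 10.1 TPM on average. The synthesising enzyme ALDH1A2 had 0 reads and ALDH1A1 had 2 and 0, while ALDH1A3, the third such enzyme, was detected at 0.438 and 0.405 TPM. RXRB, in the stretch of chromosome 6 described for PBX2, had 0 reads.

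In the coordinates of the deposited table (hg19), the clusters span from 98.1 kb (HOXD) to 201 kb (HOXB). HOXC lies on chromosome 12 from 54332535 to 54449813 (117 kb) and HOXD on chromosome 2 from 176957619 to 177055688 (98.1 kb), both with all genes on the plus strand. HOXA lies on chromosome 7 from 27132612 to 27239725 (107 kb) and HOXB on chromosome 17 from 46605888 to 46806540 (201 kb), both on the minus strand. Members shared on average 28.2% of exon bases with other rows in HOXC, 24.2% in HOXA, 17.3% in HOXD and 10.1% in HOXB. Reads on shared bases are not counted for either row.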

How the data were processed

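Total RNA of T47D cells with ESR1 Y537S and control siRNA was sequenced, per the labels' protocols, with a stranded kit after ribosomal RNA depletion. The deposited values are raw whole-number counts that featureCounts 2.0.2 summed per gene over GENCODE 19 exons, per the file headers; the recorded call holds no strand, paired-end, multimapping or overlap option. HISAT2 and hg19 (GRCh37) stand in the submitters' processing notes. The deposited exon length, the other value read from the tables, is in bases. Column names give the line, the residue and the replicate, and the match to samples rests on these, as no siRNA is named there. Another 8 library columns were not used.

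From the counts, CPM over all 57820 genes and TPM with the deposited exon length were computed (Python 3.11.15, pandas 2.3.3). Names were found for 51996 identifiers (89.9%); gene types came from GENCODE 29. Single counts have exact Poisson and ratios exact conditional binomial 95% intervals; both cover counting error only, and a count of 0 was set to a floor of 3 reads. TMM sizes came from edgeR 4.0.16; DESeq2 1.42.0 size factors, total counts, CPM, exon bases covered by no other row (at least 100), other limits and each library alone were tried as alternatives. The tests were checked on simulated counts that held counting error only, so the check does not cover further spread between libraries. Genes were named by rule: members, the 3 largest and 3 smallest called pairs, and of each list the top 3 by mean TPM and any at 10 TPM or more; others named (GBX2, PRAC1, ALDH1A2 and the like) were chosen after their values were seen. Members and lists were chosen with earlier results of these data known. Results for 1 member and for some listed genes are not reported here by name.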

Additional observations from a re-analysis of the deposited data

How the results depend on the processing

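The number of HOX genes detected was 10 at 1 CPM, 11 at 0.5 CPM, 9 at 2 CPM and 10 at 1 TPM, and 10 to 11 with a single library. Cluster medians of log2 level kept HOXC first in every alternative tried. With a pseudocount of 1 they were 0 for HOXA, 0.20 for HOXB, 1.97 for HOXC and 0.048 for HOXD. As CPM they were -1.29 for HOXB, 2.82 for HOXC and -2.73 for HOXD, and over unshared exon bases HOXC rose to 2.63. Over members at 1 CPM or more on average they were 1.10 for HOXB and 2.76 for HOXC; HOXA and HOXD then had no member and no value. With either library alone the medians ranged from -2.14 to -1.82 for HOXB, from 1.34 to 1.84 for HOXC and from -2.90 to -2.87 for HOXD. The number of neighbour pairs called was 11, and 10 to 11 under the alternatives; that of paralog pairs was 19, and 18 to 21. The count of HOX genes that differed between the libraries was 3 under TMM, DESeq2 and total counts and 4 without a filter on low counts. With counts halved, an alternative chosen after seeing the data, it was 1. No pair ratio reversed. HOXC6 over HOXC5 lost its call without replicate 1 (log2 1.73), at the 99th percentile and over unshared bases (1.06), HOXC4 over HOXB4 at the 99th percentile, HOXB7 over HOXB6 as CPM (1.72) and HOXC4 over HOXD4 with counts halved (3.09). Without replicate 1, HOXB7 over HOXB8, HOXC6 over HOXA6 and HOXC8 over HOXB8 were called (4.87, 3.79 and 4.56). The cause of these changes was not tested. No paired analysis was possible because the labels give only 1 group. The main limits are 2 libraries of 1 group, unstranded counting, and exon bases shared between rows: 20 of 39 members shared over 10% of theirs, and levels of genes under about 1 CPM rest on few reads.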
